A study of Homo sapiens with 6 samples.

Results

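The splicing regulators PTBP1, PTBP2, PTBP3, MBNL1, MBNL2, MBNL3, RBFOX2, QKI, CELF1 and RBM47 were followed by symbol through 6 RNA sequencing libraries, 10 genes of 27408 in the table, with 54 transcripts of 59128. MIA-PaCa2 and PANC-1, both established cell lines from human pancreatic cancer, were each sequenced as the control named LPCX, with ESRP1 overexpression and with ESRP2 overexpression, and the labels give no treatment for any of the 6. Whether a line with a construct is 1 clone or a pool is not stated in the sources used here. ESRP1 and ESRP2 are epithelial RNA-binding proteins that set exon choice, and the question behind the study was what they do in pancreatic cancer. There was 1 library per line and construct, so a ratio within a line has no replicate check. Values are TPM, a transcript abundance scaled for transcript length and for the library total. TPM holds no read number, so the depth is unknown. Where 3 values of a line are given, their order is LPCX, ESRP1, ESRP2.

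Proteins of these families bind short RNA motifs in or beside alternative exons and favour or block their use, often according to the side on which they bind. PTB proteins mostly repress exons through pyrimidine tracts. MBNL, RBFOX, CELF and QKI proteins shift exon choice as muscle, nerve and epithelium mature, and many of them splice their own transcripts and those of their paralogs. RBM47 is found mainly in epithelia. Several of the regulators are known to change during epithelial-mesenchymal transition, the setting in which ESRP proteins are lost.

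The exons on which the isoform results turn are printed here, because each divides the main transcripts of its gene. They were read from GENCODE release 29 transcripts on GRCh38, 5′ to 3′ in the direction of the RNA, and all lie in coding sequence and on the plus strand. In the PTBP1 exon (chr19:805492-805569) the capitals mark the 57 bases kept when a splice site inside the exon is used (chr19:805513-805569). In the MBNL exons of 36 and 95 bases the capitals mark bases that the paralogs share. The positions are chr1:96806419-96806452 for PTBP2, chr3:152446704-152446757 for the 54-base MBNL1 exon, chr3:152455542-152455577 and chr3:152456267-152456361 for the other MBNL1 exons, and chr13:97365136-97365171 and chr13:97366459-97366553 for those of MBNL2.
PTBP1 78-base exon: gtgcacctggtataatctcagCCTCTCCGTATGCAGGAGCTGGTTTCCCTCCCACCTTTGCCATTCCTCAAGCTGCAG
PTBP2 34-base exon: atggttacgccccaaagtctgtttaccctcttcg
MBNL1 54-base exon: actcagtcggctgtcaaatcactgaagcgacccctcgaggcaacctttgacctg
MBNL1 36-base exon: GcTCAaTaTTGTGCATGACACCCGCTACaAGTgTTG
MBNL2 36-base exon: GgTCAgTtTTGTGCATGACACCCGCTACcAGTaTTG
MBNL1 95-base exon: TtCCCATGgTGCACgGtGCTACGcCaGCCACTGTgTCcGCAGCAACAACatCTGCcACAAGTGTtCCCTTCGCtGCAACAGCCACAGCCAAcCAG
MBNL2 95-base exon: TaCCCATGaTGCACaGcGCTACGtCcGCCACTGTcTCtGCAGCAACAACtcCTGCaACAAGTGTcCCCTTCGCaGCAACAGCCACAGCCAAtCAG

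The MBNL1 and MBNL2 exons share 31 of 36 bases (86.1%) and 81 of 95 bases (85.3%). The exons of 78, 54 and 36 bases keep the reading frame, and those of 34 and 95 bases do not. The letters TGCATG, the motif bound by RBFOX proteins, begin at base 12 of both 36-base exons. They were searched in the direction of the RNA and on either strand, and occur in 1.08% and 1.39% of the 649 internal exons of 36 bases in the annotation. They are in none of the other 5 exons printed.

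Both overexpressed genes were high where the labels place them. For ESRP1 the level was 367 TPM in the MIA-PaCa2 ESRP1 library and 491 TPM in the PANC-1 one, and at most 0.261 TPM in the other 4 libraries. ESRP2 was at 197 TPM in MIA-PaCa2 ESRP2 and 308 TPM in PANC-1 ESRP2, between 34.8 and 37.7 TPM in the other PANC-1 libraries, and at most 0.106 TPM in the other MIA-PaCa2 libraries. The keratin KRT8 was at 1772 to 2223 TPM in MIA-PaCa2 libraries but 684 to 823 TPM in those of PANC-1, KRT18 at 1421 to 1747 against 680 to 737 TPM, and KRT19 at 234 to 313 against 366 to 502 TPM. Of the mesenchymal genes, VIM was at 4142 to 5620 TPM, ZEB1 at 19.2 to 24.2 TPM and FN1 at 0.163 to 0.716 TPM over the 6 libraries. The epithelial adhesion gene EPCAM was listed at 0 in the MIA-PaCa2 libraries and lay between 24.4 and 28.2 TPM in PANC-1. E-cadherin, CDH1, was at most 0.173 TPM in MIA-PaCa2 and 3.89 to 8.59 TPM in PANC-1. The leukocyte genes PTPRC and CD3E stayed at or under 0.563 TPM, while CD68, listed with them, lay at 20.5 to 364 TPM. Of the neuronal genes, NEUROD1 was at or under 0.0311 TPM and RBFOX3 at or under 0.718 TPM, while SYP lay at 1.72 to 2.80 TPM in MIA-PaCa2 libraries and 5.74 to 7.68 TPM in those of PANC-1.

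By level, the regulators spanned a wide range on the TPM scale, with PTBP1 the most abundant and MBNL3 the least in each library. PTBP1 lay between 357 and 543 TPM. CELF1, MBNL2, MBNL1 and PTBP3 followed with ranges of 64.9 to 74.0, 61.3 to 85.1, 51.2 to 60.1 and 39.8 to 76.7 TPM. MBNL1 lay under CELF1 and MBNL2 throughout, CELF1 and MBNL2 overlapped, and the range of PTBP3 overlapped all of these. RBFOX2 (28.2 to 37.0 TPM) and QKI (28.1 to 40.6 TPM) lay lower and overlapped each other, and PTBP2, the neuronal PTB paralog, lay at 8.38 to 11.3 TPM. MBNL3 was at or under 0.0447 TPM in each library and took no part in any test. RBM47 had no common level, since it was among the middle genes in MIA-PaCa2 and near 0 in PANC-1. The plot of TPM by library shows this order.

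**Figure D1:**
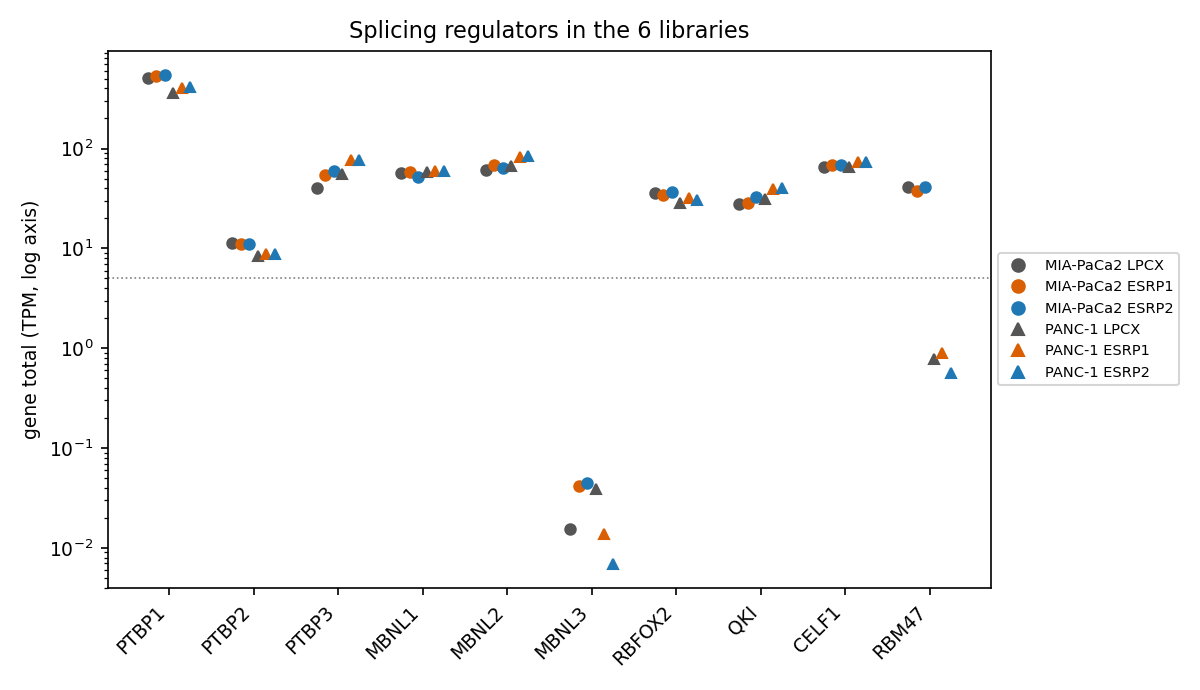
Gene totals in TPM (log axis) of the 10 regulators, with 1 point per library, circles for MIA-PaCa2 and triangles for PANC-1, and a dotted line at 5 TPM. PTBP1 stands above the rest at 357 to 543 TPM, MBNL3 lies at or under 0.0447 TPM, and RBM47 has its circles at 37.5 to 41.3 TPM and its triangles at or under 0.892 TPM.

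RBM47 differed most between the lines. It was at 41.3, 37.5 and 41.1 TPM in MIA-PaCa2, and at 0.777, 0.892 and 0.567 TPM in PANC-1. The lines did not overlap, and the constructs left the level within a narrow band in each line. PANC-1 minus MIA-PaCa2 was -4.56 on the log2 scale of TPM plus 1 (limma with construct and line as terms, SE 0.110, adjusted p = 2.94e-06). The long form NM_001098634 (593 residues, against 524 for NM_019027) made up 93.6%, 97.0% and 93.9% of RBM47 in MIA-PaCa2. Shares in PANC-1 are not given, because the gene was under 1 TPM. Of the epithelial markers above, KRT8 and KRT18 were also higher in MIA-PaCa2, while EPCAM, CDH1 and KRT19 were higher in PANC-1, as was ESRP2 in the LPCX libraries.

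The PTB genes differed between the lines in opposite directions. PTBP1 was at 513, 537 and 543 TPM in MIA-PaCa2, and at 357, 407 and 413 TPM in PANC-1. PTBP2 was at 11.3, 11.2 and 11.02 TPM in MIA-PaCa2 and at 8.38, 8.81 and 8.70 TPM in PANC-1. For both gene totals each PANC-1 library lay under each MIA-PaCa2 library. The limma differences were -0.44 (SE 0.0610, adjusted p = 0.00113) for PTBP1 and -0.34 (SE 0.0794, adjusted p = 0.00988) for PTBP2. The lower PTBP2 total lay in NR_125357, listed as noncoding (MIA-PaCa2 range 6.70 to 7.32 TPM, PANC-1 range 2.79 to 5.05 TPM). The coding form NM_001300988 overlapped between lines (0.923 to 2.40, then 1.08 to 2.57 TPM). So did NM_021190 (0.0360 to 1.65, then 1.32 to 2.65 TPM). Less coding PTBP2 in PANC-1 is therefore not shown. PTBP3, a relative first described in blood cells, was higher in PANC-1 by 0.44 (SE 0.0612, adjusted p = 0.00116).

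MBNL2 and QKI were also higher in PANC-1, by 0.26 (SE 0.0734, adjusted p = 0.0206) and 0.30 (SE 0.0836, adjusted p = 0.0190), and RBFOX2 was lower, at -0.23 (SE 0.0749, adjusted p = 0.0325). CELF1 and MBNL1 did not pass, at 0.07 (SE 0.0597) and 0.11 (SE 0.0645). Thus 3 of 9 measured regulators were called higher and 4 lower by limma. Of all 11829 genes 78.8% were called between the lines, so the count for the regulators is near the background. The 3 libraries of a line share their origin, and the spread in this model is that of the construct effects between lines. With median ratio scaling, or without any 1 of the 4 ESRP libraries, the MBNL2 call ended (adjusted p = 0.0554 to 0.0864). The PTBP2 call ended without either LPCX library (0.0580 and 0.0591) and the QKI call without either ESRP1 library (0.102 and 0.106). The RBFOX2 call ended without either LPCX or either ESRP2 library (0.0884 to 0.154), while PTBP1, PTBP3 and RBM47 were called whichever library was left out.

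Among the ESRP effects on gene level, PTBP3 stood highest in both lines. It was at 39.8, 54.02 and 60.1 TPM in MIA-PaCa2, and at 55.8, 76.2 and 76.7 TPM in PANC-1. Each ESRP library lay above the LPCX library of its line, with log2 ratios of 0.43 and 0.58 for MIA-PaCa2, and 0.44 and 0.45 for PANC-1. Both constructs are read against the same LPCX library within a line. Over both lines the limma estimate was 0.44 for ESRP1 (SE 0.0750, unadjusted p = 0.00159, adjusted p = 0.598) and 0.52 for ESRP2 (SE 0.0750, unadjusted p = 0.000705, adjusted p = 0.329), so neither passed. As a description of size, 23 of 11829 genes had a smaller ratio of the 2 lines at least as high as that of PTBP3 with ESRP1, and 43 with ESRP2.

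By transcript, the PTBP3 difference was made up differently in each line. NM_001163788, the main form with 524 residues, was at 23.4, 30.7 and 30.7 TPM in MIA-PaCa2, and at 32.1, 50.03 and 49.8 TPM in PANC-1. NM_005156, which adds a 34-base exon near the start, was at 7.03, 12.8 and 13.4 TPM in MIA-PaCa2 and at 10.4, 9.56 and 12.0 TPM in PANC-1. NM_001244896, which lacks a 170-base exon (chr9:112275844-112276013, minus strand), was at 8.57, 10.1 and 14.8 TPM in MIA-PaCa2 and 10.8, 13.3 and 10.6 TPM in PANC-1. In PANC-1 the difference from LPCX therefore lay mostly in NM_001163788, and in MIA-PaCa2 it was divided among the 3 forms. No PTBP3 transcript share was called by limma for either construct, with adjusted p between 0.940 and 0.997.

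**Figure D2:**
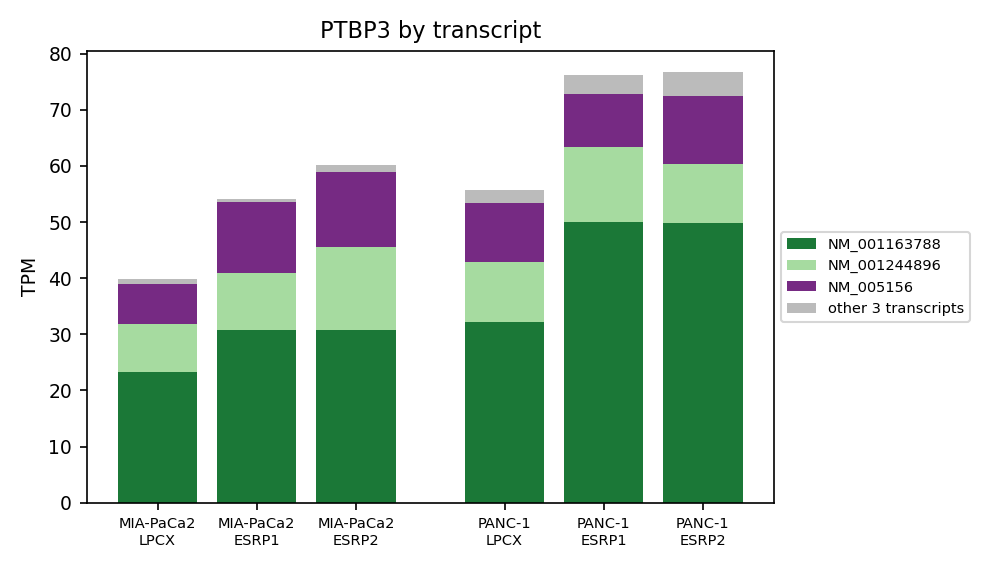
TPM of PTBP3 transcripts stacked by library (1 bar per library, LPCX, ESRP1 and ESRP2 in each line). Bars reach 39.8, 54.02 and 60.1 TPM in MIA-PaCa2 and 55.8, 76.2 and 76.7 TPM in PANC-1, and NM_001163788 is the largest part of each.

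The other regulators lay nearer to LPCX. QKI, which binds a bipartite motif and also promotes circular RNA formation, was at 28.1, 28.2 and 33.0 TPM in MIA-PaCa2, and at 30.9, 39.5 and 40.6 TPM in PANC-1. Its ESRP2 estimate was 0.30 (limma, SE 0.102, adjusted p = 0.336), and its ESRP1 estimate of 0.18 (SE 0.102, adjusted p = 0.675) joined a ratio of 0.01 for MIA-PaCa2 with one of 0.35 for PANC-1. MBNL2 was at 61.3, 68.5 and 64.4 TPM in MIA-PaCa2 and at 66.3, 82.5 and 85.1 TPM in PANC-1, with estimates of 0.23 for ESRP1 (SE 0.0899, adjusted p = 0.658) and 0.21 for ESRP2 (SE 0.0899, adjusted p = 0.367). PTBP1 was at 0.13 and 0.15 and CELF1 at 0.11 and 0.13 for ESRP1 and ESRP2, with the larger part of each in PANC-1. The median ratio over all genes was also larger in PANC-1, at 0.09 and 0.10, beside 0.04 and 0.05 in MIA-PaCa2. RBFOX2 (0.06 and 0.07), MBNL1 (0.04 and -0.05), PTBP2 (0.02 and 0.01) and RBM47 (-0.02 and -0.09) were closer to 0.

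In all, limma called 0 of 9 regulators for ESRP1, with 2 at an unadjusted p under 0.05 (PTBP3 and MBNL2), and 0 of 9 for ESRP2, with 2 (PTBP3 and QKI). Of all genes 0.00845% were called for ESRP1 and 0.0169% for ESRP2, and 6.93% and 13.8% were at an unadjusted p under 0.05. The medians over the 9 were 0.11 and 0.13, beside 0.06 and 0.06 over all genes tested. With median ratio scaling the medians were 0.07 for both constructs, beside 0.02 and 0.01. Within a line, 0 regulators differed from LPCX by 2-fold, of 9 measured in MIA-PaCa2 and 8 in PANC-1, where RBM47 was too low. The background at 2-fold was 1.28% and 1.62% of genes for ESRP1 and ESRP2 with MIA-PaCa2, then 1.51% and 1.96% with PANC-1. ESRP1 and ESRP2 were not told apart for any of the 9, with 0 called by limma (background 0.00845%) and 0 at an unadjusted p under 0.05 (background 4.2%), the widest differences being -0.13 for QKI (SE 0.102) and 0.09 for MBNL1 (SE 0.0790).

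**Figure D3:**
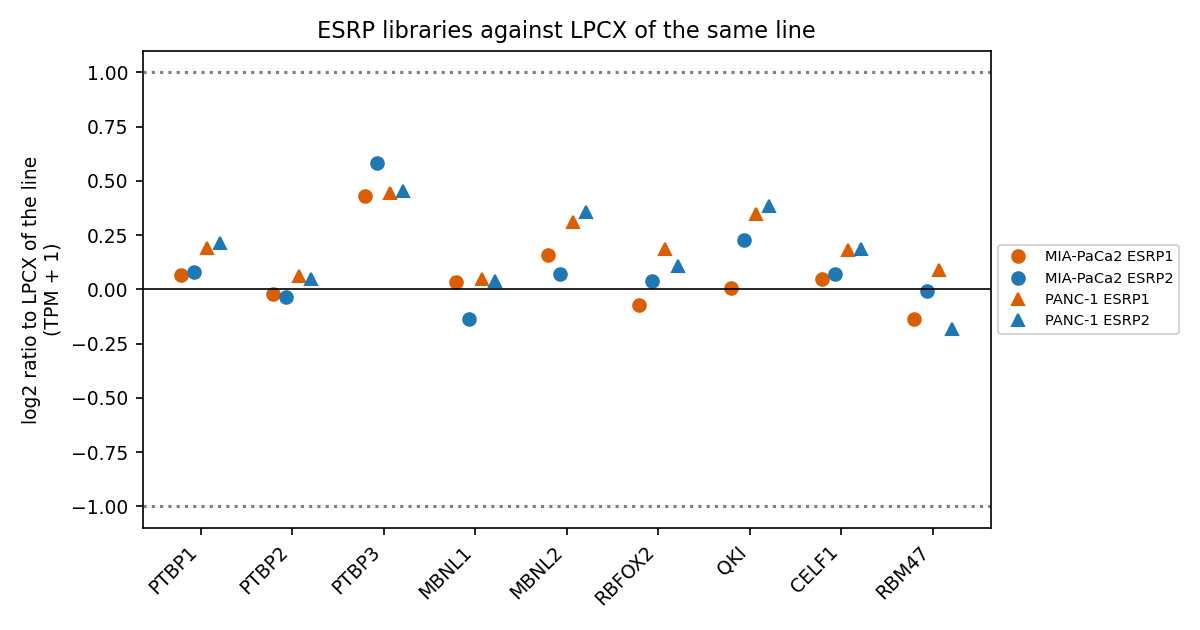
Log2 ratio of TPM plus 1 in each ESRP library to the LPCX library of the same line, for the 9 regulators at 5 TPM or more in at least 2 libraries, with 1 point per library and dotted lines at 2-fold. PTBP3 has its 4 points between 0.43 and 0.58, and no point reaches 2-fold.

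Among the isoforms, those of MBNL1 differed from LPCX by at least 10 points in both lines with ESRP2. MBNL1 transcripts carry a 54-base exon, known to favour nuclear localisation of the protein, or a 36-base exon, known to favour its self-association, in addition to a 95-base exon near the end. The main forms are NM_021038, with the 36-base exon (382 residues), and NM_207293, with the 54-base exon (388 residues). NM_207293 made up 28.1% of MBNL1 TPM with LPCX in MIA-PaCa2, 42.5% with ESRP1 and 50.7% with ESRP2, against 15.2%, 21.4% and 25.7% in PANC-1. NM_021038 made up 53.98%, 39.0% and 31.9% in MIA-PaCa2, against 66.5%, 56.7% and 55.0% in PANC-1. In both lines NM_207293 was thus lowest with LPCX and highest with ESRP2, while total MBNL1 stayed between 51.2 and 60.1 TPM.

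Read as exons, inclusion of the 54-base exon was 39.4%, 49.7% and 61.1% in MIA-PaCa2, against 26.2%, 30.4% and 35.97% in PANC-1. Inclusion of the 36-base MBNL1 exon was 69.2%, 53.4% and 45.02% in MIA-PaCa2, against 84.0%, 77.7% and 73.1% in PANC-1. The 95-base exon of MBNL1 was in 90.04% to 99.0% of the TPM. Inclusion here is the TPM of transcripts with the exon as a percentage of transcripts with it and transcripts that skip it. The 2 exons are mostly on different transcripts, so their values are not separate measurements.

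Tested as log2 odds within the gene, the limma estimates for ESRP2 were 1.14 for NM_207293 (SE 0.231, unadjusted p = 0.00447, adjusted p = 0.577) and -0.99 for NM_021038 (SE 0.241, unadjusted p = 0.00933, adjusted p = 0.651). For ESRP1 they were 0.74 (SE 0.231, adjusted p = 0.826) and -0.72 (SE 0.241, adjusted p = 0.834). None passed, and ESRP1 and ESRP2 did not differ beyond the spread (NM_207293, -0.40, SE 0.231, adjusted p = 0.939). With ESRP2 both MBNL1 transcripts differed from LPCX by at least 10 percentage points in both lines, NM_207293 higher (1 of 21 transcripts of the regulators, background 1.27%) and NM_021038 lower (with a PTBP2 transcript 2 of 21, background 1.13%). With ESRP1 none of the 21 did so, beside 0.949% higher and 0.872% lower. As an exon, only the 36-base one of MBNL1 passed 10 points in both lines, lower with ESRP2 (background 0.961% lower and 1.8% higher), and none of the regulators' exons did with ESRP1 (0.815% and 1.22%). Of 3435 cassette exons, 29 were lower in both lines with ESRP2 by at least as much as the 36-base MBNL1 exon.

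The paralogous exon of MBNL2 lay on the other side of LPCX. The 36-base MBNL2 exon was included at 65.3%, 69.5% and 74.1% in MIA-PaCa2, and at 56.5%, 74.6% and 75.0% in PANC-1. The 95-base MBNL2 exon had 64.8%, 68.8% and 73.7% in MIA-PaCa2, against 56.5%, 73.8% and 74.0% in PANC-1. The 2 MBNL2 exons are held together by NM_144778 (367 residues) and are missing together from NM_207304 (361 residues), so they count as 1 measurement (NM_001306070, with the 36-base exon only, held at most 1.02%). Each ESRP library lay above the LPCX library of its line, by 4.27 and 8.85 points in MIA-PaCa2 and by 18.1 and 18.5 points in PANC-1 for the 36-base exon. On the log2 odds scale NM_144778 was at 0.68 for ESRP1 (limma, SE 0.279, adjusted p = 0.872) and 0.86 for ESRP2 (SE 0.279, unadjusted p = 0.0280, adjusted p = 0.743). The 36-base exons of MBNL1 and MBNL2 printed above, alike in 31 of 36 bases, were therefore placed lower and higher than LPCX in the same libraries. That difference between the paralogs was not tested.

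**Figure D4:**
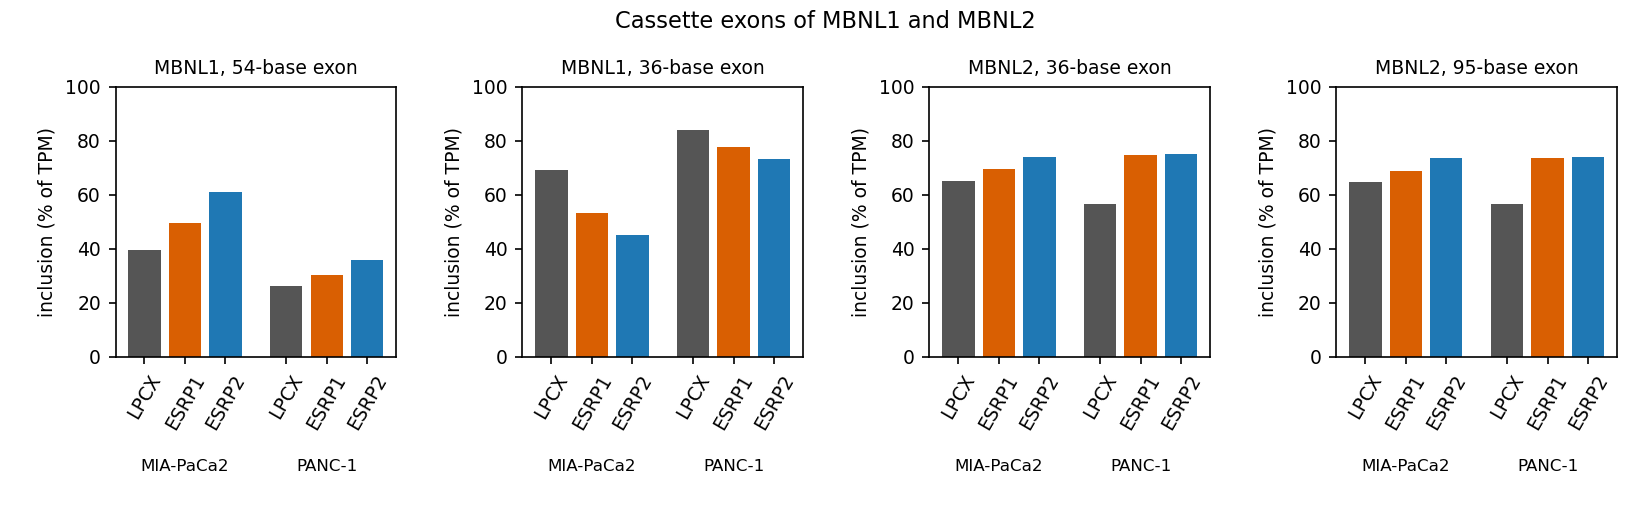
Inclusion (% of TPM of transcripts that hold or skip the exon) of 4 exons of MBNL1 and MBNL2, with 1 bar per library. The 36-base exon of MBNL1 is at 69.2% with LPCX and 45.02% with ESRP2 for MIA-PaCa2, then 83.97% and 73.1% for PANC-1, while that of MBNL2 is at 65.3% and 74.1%, then 56.5% and 75.03%.

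MBNL1 isoforms also differed between the lines. The limma line difference was -1.34 for NM_207293 (SE 0.188, adjusted p = 0.0182) and 1.04 for NM_021038 (SE 0.196, adjusted p = 0.0313), so PANC-1 held less of the form with the 54-base exon. Both calls ended when any 1 library was left out, with adjusted p of 0.0560 to 0.0914 and 0.0740 to 0.118. The lines overlapped in no NM_207293 share, the highest in PANC-1 being 25.7% and the lowest in MIA-PaCa2 28.1%. For MBNL2 the line difference of NM_144778 was -0.04 (SE 0.227, not passing).

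PTBP1 isoforms separated the lines and did not follow the constructs. The 78-base exon lies between RNA-binding domains of PTBP1, and protein without it is known as a weaker repressor. Inclusion was 51.4%, 50.2% and 48.0% in MIA-PaCa2, against 81.0%, 83.1% and 81.6% in PANC-1. The lines were apart by far more than the libraries of a line. NM_031991, the form without the exon (531 residues), was at 250, 267 and 282 TPM in MIA-PaCa2 and at 67.8, 69.0 and 76.2 TPM in PANC-1. NM_002819, the 557-residue form with it, was at 259, 266 and 256 TPM in MIA-PaCa2 and at 281, 332 and 331 TPM in PANC-1. The higher PTBP1 total of MIA-PaCa2 thus lay in the form without the exon. NM_031990, which uses the 57 bases in capitals above, stayed between 4.23 and 7.61 TPM.

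For NM_031991 the limma line difference in log2 odds was -2.18 (SE 0.175, adjusted p = 0.00720), and for NM_002819 it was 2.06 (SE 0.177, adjusted p = 0.00796). The calls ended for NM_002819 without either ESRP1 library (adjusted p = 0.0546 and 0.0542) and for NM_031991 without MIA-PaCa2 ESRP1 (0.0509). Against LPCX the largest of the PTBP1 estimates was 0.09 (limma, NM_002819 with ESRP1, SE 0.217, adjusted p = 0.982), and between ESRP1 and ESRP2 it was -0.14 (NM_031991, SE 0.214, adjusted p = 0.970). With 3 libraries on each side, inclusion was at least 10 points apart with no overlap in 5.85% of cassette exons, the PTBP1 exon among them. Of 21 transcripts of the regulators tested, limma called 2 higher and 2 lower between the lines, those of PTBP1 and MBNL1. Within each gene the called transcripts mirror each other, so they are not separate measurements. The background was 17.3% of 12965 transcripts, 8.12% higher and 9.14% lower.

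PTBP2 carries a 34-base exon whose skipping shifts the reading frame and is known to send the transcript to nonsense-mediated decay, and PTBP1 is known to promote that skipping. The exon was included at 35.4%, 39.8% and 27.6% in MIA-PaCa2, and at 56.5%, 42.7% and 64.3% in PANC-1. The lines did not overlap, with 39.8% and 42.7% the nearest libraries. That gap is under the 10 points of the background given for the PTBP1 exon, and exons with smaller gaps were not counted. The skipping transcript NR_125357, listed as noncoding, was the largest PTBP2 form in each library, at 7.32, 6.70 and 7.05 TPM in MIA-PaCa2 and at 3.42, 5.05 and 2.79 TPM in PANC-1. Its line difference did not pass (limma, -1.05, SE 0.336, adjusted p = 0.0947). The lines with more and less total PTBP1 thus had lower and higher PTBP2 exon inclusion, in 2 lines only. The PTBP1 forms differed in opposite directions. NM_031991, known as the weaker repressor, was higher in MIA-PaCa2 (250 to 282 TPM, PANC-1 67.8 to 76.2 TPM). NM_002819 was higher in PANC-1 (281 to 332 TPM, MIA-PaCa2 256 to 266 TPM), the line with more PTBP2 exon inclusion. Whether PTBP1 bears on the PTBP2 exon was not tested.

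For the PTBP2 exon the directions were mixed, with ESRP1 and ESRP2 at 4.37 and -7.88 points from LPCX in MIA-PaCa2 and at -13.9 and 7.77 in PANC-1. NM_001300988, a form with the exon, was lower with ESRP2 by at least 10 points in both lines, from 21.1% to 8.38% and from 30.7% to 20.2% (limma, -0.94, SE 0.476, adjusted p = 0.806). In TPM these were 2.40 and 0.923 for MIA-PaCa2, then 2.57 and 1.76 for PANC-1. At such levels several of the 9 PTBP2 transcripts are listed at 0 in some libraries and at about 1 TPM in others.

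**Figure D5:**
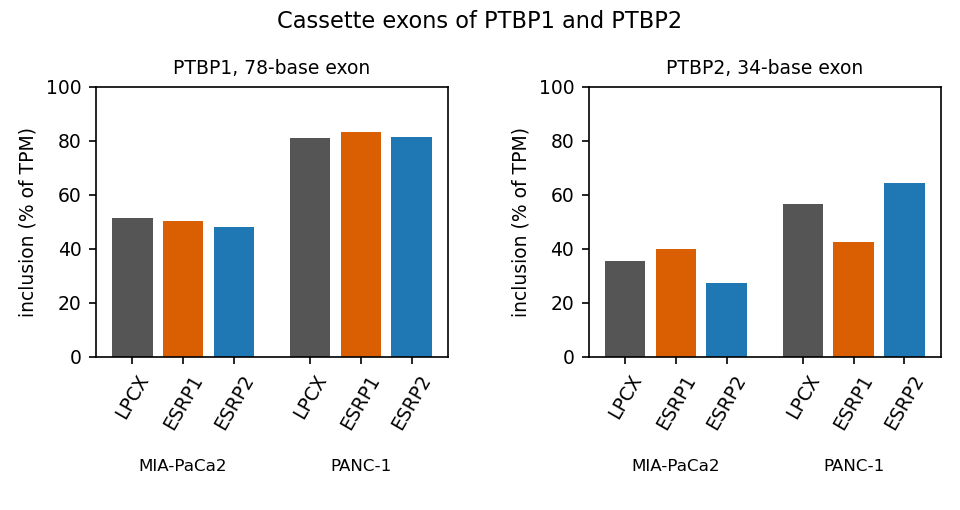
Inclusion (% of TPM of transcripts that hold or skip the exon) of the 78-base exon of PTBP1 and the 34-base exon of PTBP2, with 1 bar per library. PTBP1 inclusion is 48.0% to 51.4% in MIA-PaCa2, against 81.0% to 83.1% in PANC-1, and PTBP2 inclusion is 27.6% to 39.8% and 42.7% to 64.3%.

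Among the other regulators, QKI kept its main form in all 6 libraries. QKI was mostly NM_006775, the 341-residue nuclear form QKI-5, at 77.5% to 85.1% of its TPM. The share was 85.1%, 79.2% and 77.5% in MIA-PaCa2, against 83.6%, 81.7% and 82.9% in PANC-1, with estimates of -0.35 for each construct (limma, SE 0.254, adjusted p = 0.938 and 0.838). NM_206853, a 319-residue form, was at 0.173, 1.47 and 2.57 TPM in MIA-PaCa2 and 1.36, 3.33 and 3.18 TPM in PANC-1. LPCX was lowest for that form in both lines, and its share, under 10% in each library, was not tested.

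CELF1 was divided between NM_006560 and NM_001330272, and the larger form differed by line. NM_006560 was at 48.5%, 45.8% and 45.8% in MIA-PaCa2 and at 38.0%, 41.2% and 39.5% in PANC-1. NM_001330272 was at 39.6%, 36.5% and 37.1% in MIA-PaCa2 and at 46.0%, 42.1% and 44.3% in PANC-1. Neither line difference passed (limma, adjusted p = 0.160 and 0.171). RBFOX2, whose protein is known to act on many exons that ESRP proteins also regulate, was divided among NM_001082579, NM_001082576 and NM_001082578. The largest was NM_001082579, except in PANC-1 LPCX, where it was at 30.1% and NM_001082576 at 32.9%. NM_001082576 was at 30.3%, 24.7% and 29.8% in MIA-PaCa2 and at 32.9%, 23.3% and 25.6% in PANC-1, with an ESRP1 estimate of -0.53 (limma, SE 0.232, adjusted p = 0.872). No exon values are given for RBFOX2, since 3 of its 6 transcripts could not be paired with the annotation. Over the 21 transcripts tested, limma called 0 for ESRP1 (background 0.00771%), 0 for ESRP2 (background 0%) and 0 between ESRP1 and ESRP2 (background 0%). At an unadjusted p under 0.05 there were 2, 4 and 0 of the 21, beside 5.71%, 6.36% and 4.49% of all transcripts. For ESRP1 these were the main transcripts of MBNL1, and for ESRP2 those of MBNL1 and MBNL2. Shares of the main transcripts of a gene mirror each other, so they are not separate measurements.

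Other exon-choice proteins, with RBFOX and CELF paralogs of the regulators among them, gave a like picture. Of 48 listed genes in the table, 30 were tested, and limma called 0 for ESRP1 (1 at an unadjusted p under 0.05, beside 6.93% of all genes) and 0 for ESRP2 (2, beside 13.8%). Their medians were 0.07 for both constructs, beside 0.06 over all genes. The highest in both lines were RBM38 (0.19 for MIA-PaCa2, 0.17 for PANC-1) and KHSRP (0.14 and 0.20) with ESRP1, and FUBP1 (0.17 and 0.24) and KHDRBS1 (0.13 and 0.22) with ESRP2. The lowest were RBM24 (-0.29 and -0.05) and SRRM2 (-0.06 and -0.12) with ESRP1, and UNK (-0.03 and -0.18) and TIAL1 (-0.07 and -0.05) with ESRP2. Between the lines 9 were called higher and 14 lower in PANC-1, near the background of 78.8%.

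Genes with exons tied to these regulators were read out by transcript share. Of 18 measured, 4 had a transcript at least 10 points above LPCX in both lines, or below it in both, with ESRP1 (ENAH, CTNND1, SLK and CD44, beside 2.62% of all genes), and 5 with ESRP2 (ENAH, CTNND1, SLK, CD44 and MAP3K7, beside 3.6%). These 5 are also known ESRP targets, and the list was made with earlier results known, so the counts are a description. At the gene level limma called 0 of 23 for either construct, with 3 and 4 at an unadjusted p under 0.05, beside 6.93% and 13.8% of all genes. CTNND1 (0.22 for MIA-PaCa2, 0.44 for PANC-1) and CTTN (0.20 and 0.24) were highest with ESRP1, NUMB (0.20 and 0.52) and ADD3 (0.25 and 0.37) with ESRP2. BIN1 (-0.11 and -0.02) was lowest with ESRP1 and MAPT (-0.10 and -0.11) with ESRP2.

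Named after their values were seen, 3 classical PTB targets had no tested transcript share 10 points from LPCX in either line. The largest change was 9.64 points, for TPM1 NM_000366 with ESRP1 in MIA-PaCa2. Other genes of the list did pass 10 points in PANC-1 with ESRP2, as FLNA (NM_001456, 14.6 points higher) and CTTN (NM_001184740, 10.3 points higher). The 3 genes therefore do not stand for the list. PKM, pyruvate kinase, had NM_002654 at 94.5% to 97.0% in the 6 libraries, and ACTN1, an actin crosslinker, had NM_001102 at 98.8% to 99.5%. TPM1, tropomyosin, differed between lines, with NM_001330344 at 67.6% to 76.1% in MIA-PaCa2, against 14.6% to 18.9% in PANC-1.

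Genes whose level followed a regulator most closely over the 6 libraries were listed for the 3 regulators with the widest range, from 4289 coding genes that varied by at least 2-fold. For RBM47 they were PLK2, SPOUT1 and HTRA1 (Pearson r of log2 TPM plus 1 of 0.9998, 0.9997 and 0.9997), and for PTBP1 MCM4, PPIL4 and ACLY (0.999 each). For PTBP3 they were ALDOC, GRHL1 and KCTD5 (0.954, 0.953 and 0.947). The 6 libraries fall into 2 lines, and these values describe them without a test. GRHL1, an epithelial transcription factor, was at 3.21, 8.79 and 8.19 TPM in MIA-PaCa2 and at 6.68, 11.6 and 12.0 TPM in PANC-1. Like PTBP3, GRHL1, ALDOC and KCTD5 were all lowest with LPCX in each line, which repeats the likeness by which they were chosen.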

How the data were processed

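The authors deposited 1 table of TPM for RefSeq transcripts. Per the submitters' processing notes, Salmon and GRCh38 were used, with versions not given in the sources used here. Of 67792 lines, 8664 repeated another with equal values and were dropped, after which each library summed to 1000000. Columns were matched to titles by line and construct. The header spells MIA-PaCa2 LPCX as MIA-PaCo2, and the column headed ESRP12 was taken as MIA-PaCa2 ESRP2 by elimination. LPCX headers end in N and the others in T, which no source explains.

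TPM were summed by symbol. Models with a mean-variance trend (limma 3.58.1, R 4.3.3) took log2 of TPM plus 1 for 11829 genes reaching 5 TPM in 2 or more libraries and log2 odds of transcripts with a pseudocount of 0.5 TPM (12965 transcripts with at least 10% of a gene in a library, genes with at least 2 transcripts and 5 TPM in every library). Construct and line were terms, which leaves 2 residual degrees of freedom. The line is the block. P-values were adjusted by Benjamini-Hochberg over all features at 0.05. Nothing in the labels says how cultures were separated, so p-values measure the spread between these libraries only. On simulated data, with spreads exchanged at random among features, the share model called none of the changes about as large as the MBNL1 estimates. The simulated gene changes were all larger than the PTBP3 estimates, so smaller ones were not tried. A share or gene level that did not pass is therefore not shown to be unchanged.

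Transcripts were paired with GENCODE release 29 for exon inclusion, where paired transcripts held at least 90% of a gene of at least 5 TPM and inclusion reached 5% in some library and 95% or less in some library. Some transcripts of a gene were paired with the same annotated transcript, and so took its exons and residue count. Both noncoding PTBP2 forms were among them. Salmon divides reads between overlapping transcripts, so shares of rare forms can shift between near-identical transcripts. Members and lists were chosen with earlier results of these data known. The rule for named genes took the 10 regulators, their transcripts with at least 10%, called genes of 2 lists or the 2 highest and 2 lowest of each list by the smaller ratio of the lines, and the 3 most alike genes of 3 regulators.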

Additional observations from a re-analysis of the deposited data

Results flagged for a closer look

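Some values lay on opposite sides of LPCX in the 2 lines with both constructs. The difference between lines was not tested for any of them, and all are small. Values are given in the order ESRP1 and ESRP2 in MIA-PaCa2, then ESRP1 and ESRP2 in PANC-1. PTBP2 gene level was at -0.02, -0.04, 0.06 and 0.05 on the log2 scale, and with median ratio scaling the PANC-1 values became 0.01 and -0.01. Inclusion of the 78-base PTBP1 exon was at -1.17, -3.39, 2.06 and 0.56 percentage points from LPCX. The 34-base PTBP3 exon was at 5.97, 5.00, -7.83 and -2.71 points, and the share of the main PTBP3 form NM_001163788 at -1.83, -7.55, 8.04 and 7.38 points. The RBFOX2 transcript NM_014309 was at 4.82, 3.27, -3.70 and -0.991 points. The CELF1 transcripts NM_006560 and NM_001172640 were at -2.71, -2.69, 3.19 and 1.56 points, and at 1.52, 4.49, -2.00 and -6.81 points.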

How the results depend on the processing

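The gene count for ESRP1 (1) became 0 with no replicate block, that is, without the line term. For ESRP2 (2 genes) it became 0 with a pseudocount of 0.1 TPM, with a filter of 1 TPM or with no replicate block, and ranged from 0 to 30 when 1 library was left out (30 without MIA-PaCa2 ESRP2, 13 without PANC-1 ESRP2). For ESRP1 against ESRP2 (1 gene) it became 0 with no replicate block and ranged from 1 to 23 (23 without PANC-1 ESRP2, 9 without MIA-PaCa2 ESRP2). The transcript count for ESRP1 (1) became 0 with a pseudocount of 0.1 TPM, with transcripts from 5% or without any 1 library (0 to 0). For ESRP2 (0) it became 2 with genes from 10 TPM. Between the lines, 2238 transcripts became 1466 with a pseudocount of 0.1 TPM and 207 to 401 without 1 library. At a step of 20 points the regulators had 0 transcripts higher and 0 lower with ESRP2. The line calls that ended are given beside their results. No regulator was called for ESRP1 or ESRP2, or between them, under any of these settings. The cause of these changes was not tested. Median ratio scaling moved the ratios of PTBP3 in PANC-1 to 0.38 and 0.39. In the same line it moved those of PTBP1 to 0.13 and 0.15, and those of CELF1 to 0.12 and 0.12. RBM47 with ESRP2 in PANC-1 was at -0.39 with 0.1 TPM added. Inclusion of the PTBP2 exon could not be computed from coding transcripts only. Depth is unknown, so counting error could not be given.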
